A study of Pan troglodytes and Macaca mulatta with 12 samples.

Results

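The genes described here are 9 members of the Siglec family, sialic acid-binding receptors of the immunoglobulin superfamily, in lymphoblastoid cell lines of chimpanzee and rhesus macaque. They were taken from a list of gene identifiers given for SIGLEC10, SIGLEC6, SIGLEC5, SIGLEC7, SIGLEC8, SIGLEC9, CD33, SIGLEC1 and SIGLEC11. The list was drawn up when the species difference of a block of chromosome 19 genes was already known, so the species values of these genes are given as a description, with no test. Exons of 6 of the 9 genes were listed in the files, among 16903 genes in all. SIGLEC7, SIGLEC8 and SIGLEC9 had no exon listed in any of the 12 libraries. Of the 6 genes listed, 3 (SIGLEC10, SIGLEC6 and SIGLEC5) had enough counts to pass the expression filter, which kept 9440 genes of the series.

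The cells were lymphoblastoid lines, B lymphocytes immortalised for continued culture, grown in RPMI-1640 with fetal bovine serum and with no treatment named in the labels. There was 1 library from each of 6 chimpanzees (Pan troglodytes, 3 females and 3 males) and 6 rhesus macaques (Macaca mulatta, 2 females and 4 males). Total RNA was sequenced, and the values are counts per exon, summed per gene. Each line stands for 1 animal, human lines of the design were not analysed here, and neither the animals' ages nor the immortalising agent is given in the sources used here.

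Siglecs bind sialic acids, the sugars at the ends of many cell surface glycans. Most of them carry tyrosine-based inhibitory motifs in their cytoplasmic tails, which recruit the phosphatases SHP-1 and SHP-2 and dampen signals from activating receptors. CD22 and SIGLEC10 are the inhibitory Siglecs best known on B cells, where they restrain the B cell receptor, while most of the CD33-related genes clustered on human chromosome 19 are known from myeloid and natural killer (NK) cells. The CD33-related group differs in gene content between primates.

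Depth ranged between 1434241 and 4751954 counts among the chimpanzee libraries and between 1801830 and 4600137 among those of rhesus macaque. Levels are given as CPM, in which counts are scaled to a common library size with TMM factors. At these depths 3 counts over the 6 libraries of a species correspond to 0.180 CPM for the chimpanzees and 0.175 CPM for the macaques, which covers counting error only. Of the 6 listed genes, 5 had a lower mean log2 CPM in chimpanzee and CD33 had a higher one. SIGLEC11, 1 of these 5, had 1 count in all. Over the 9440 genes tested, which leave out CD33, SIGLEC1 and SIGLEC11, 48.4% had a log2 difference below 0. For SIGLEC6 and SIGLEC1 the lowest rhesus macaque library exceeded the highest chimpanzee library. SIGLEC1, with 26 counts in all, is not among the genes tested, so the next shares do not cover it. Of all genes tested, 27.1% were separated in this way, 13.8% with chimpanzee lower and 13.3% with chimpanzee higher. The fitted log2 difference was -2 or lower for all 3 Siglec genes that passed the filter and for 6.86% of all genes tested. The filter can be passed on the counts of 1 species, as by SIGLEC6 with 17 counts in chimpanzee and 2412 in rhesus macaque. CD33, higher in chimpanzee, did not pass it. These numbers and shares of genes belong to the contrast the genes were chosen from, and nothing is read from them.

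**Figure D1:**
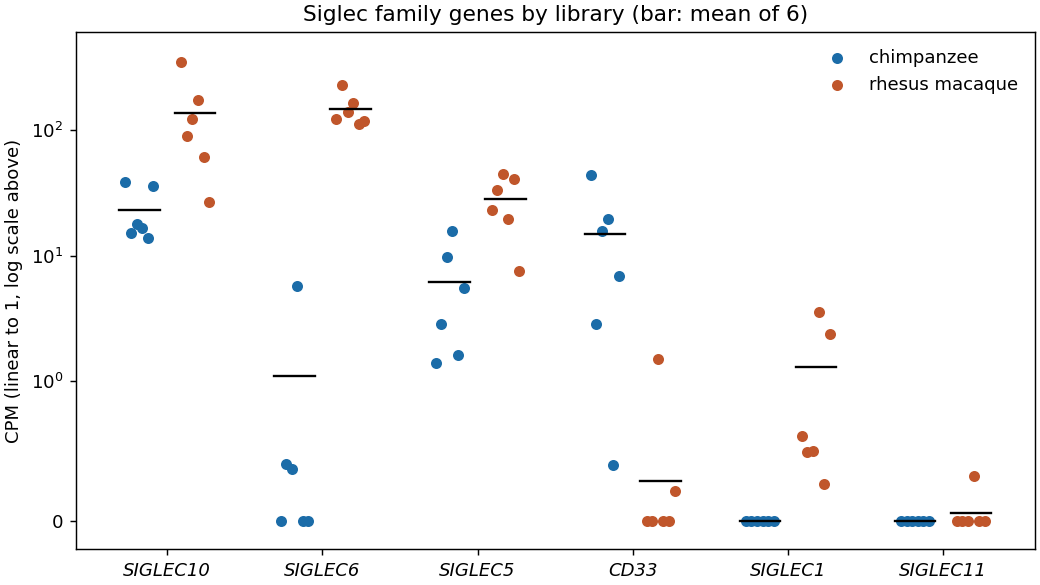
CPM of the 6 Siglec genes found in the files, 1 point per library, 6 chimpanzee and 6 rhesus macaque libraries, with a bar at the mean; the vertical axis is linear up to 1 CPM and logarithmic above. SIGLEC6 stood at 110.7 CPM or more in all rhesus macaque libraries and at 5.78 CPM or less in all chimpanzee libraries, and CD33 was the gene with the higher chimpanzee mean.

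SIGLEC10, an inhibitory receptor of B cells that binds CD24 among other ligands, was read in every library. Its mean CPM was about 6 times as high in rhesus macaque, with ratios between 2.39 and 11.3 on its single exons. The gene (ENSG00000142512) has 4 listed exons on chromosome 19 from 56605088 to 56611233. In chimpanzee the lowest, median and highest library held 13.7, 17.3 and 38.4 CPM. In rhesus macaque they held 26.6, 106 and 344.8 CPM. The groups overlapped: rhesus macaque replicate 6, at 26.6 CPM, lay below chimpanzee replicates 1 and 6, at 38.4 and 35.7 CPM. Chimpanzee averaged 22.9 ± 11.1 CPM against 136 ± 114 CPM for rhesus macaque (SD, n = 6 each), which are 5.94-fold apart. The fitted log2 difference, chimpanzee minus rhesus macaque, was -2.57 with a standard error of 0.52. Rhesus macaque lines differed widely in this gene, by 12.96 times between the highest and the lowest, and chimpanzee lines by 2.80 times.

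SIGLEC6, an inhibitory receptor known from B cells, mast cells and human placenta, showed the widest gap. The gene (ENSG00000105492) has 5 listed exons on chromosome 19 from 56722813 to 56726783. The rhesus macaque libraries held 123, 227, 139, 165, 111 and 118 CPM in replicates 1 to 6, 147 ± 43.8 CPM on average (SD, n = 6). The chimpanzee libraries held 0, 0.410, 0.375, 5.78, 0 and 0 CPM, from 17 counts in all. Chimpanzee replicate 4 alone held 15 of those counts, and 3 chimpanzee libraries had none. The fitted log2 difference was -7.04 with a standard error of 0.75, and -9.61 without chimpanzee replicate 4. Among rhesus macaque lines the gene was steady, with a highest library at 2.05 times the lowest. Its SD on the log2 scale was 0.39 there, a value below which 39.8% of the tested genes lay. The same chimpanzee library held 14.3 CPM of LYZ, the monocyte lysozyme, which was at most 1.13 CPM in the other chimpanzee libraries and 0 in rhesus macaque. Other myeloid markers did not follow LYZ alike: CSF1R had no count in this library, and MPO stood at 0.771 CPM. CD14, S100A8 and CSF3R had no count in any chimpanzee library. ITGAM, at 11.56 CPM, lay below its level in chimpanzee replicates 1 and 6 (14.65 and 12.56 CPM). Of the NK cell markers, NKG7 and NCR1 also had their highest chimpanzee level in this library, at 124.8 and 1.54 CPM. GZMB, PRF1 and KLRD1 were higher in other chimpanzee libraries. The part of monocytes, other myeloid cells or NK cells in the SIGLEC6 count was not tested.

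SIGLEC5, an inhibitory receptor of neutrophils and monocytes, was low in both species and about 4 to 5 times as abundant in rhesus macaque. The gene (ENSG00000105501) has 2 listed exons on chromosome 19 from 56807156 to 56822811. Chimpanzee replicates 1 to 6 held 1.40, 2.87, 9.76, 15.8, 1.61 and 5.495 CPM. Rhesus macaque replicates 1 to 6 held 23.2, 33.6, 44.9, 19.7, 41.0 and 7.57 CPM. Rhesus macaque replicate 6 was again the lowest of its species and lay below chimpanzee replicates 3 and 4, so the groups overlapped. The means were 6.16 ± 5.67 and 28.3 ± 14.1 CPM (SD, n = 6 each), a 4.60-fold difference, with a fitted log2 difference of -2.16 and a standard error of 0.57. With males alone the log2 difference was -3.71. In humans SIGLEC5 has a near-identical partner, SIGLEC14, so reads of the shared stretch could be split between copies and the level of SIGLEC5 is uncertain to that extent.

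CD33, an inhibitory receptor of myeloid cells that gives the CD33-related group its name, went the other way. It (ENSG00000105383) was read on a single listed exon of 502 bases, on chromosome 19 from 56434585 to 56435086. Chimpanzee replicates 1 to 6 held 44.0, 2.87, 15.8, 19.6, 0.404 and 6.87 CPM. In rhesus macaque 4 libraries had 0 counts, replicate 3 had 3 counts (1.496 CPM) and replicate 6 had 1 count (0.216 CPM). The chimpanzee lines thus ranged over 109 times, and the lowest of them, replicate 5, lay below rhesus macaque replicate 3. Chimpanzee lines averaged 14.9 ± 16.04 CPM and rhesus macaque lines 0.285 ± 0.599 CPM (SD, n = 6 each), a ratio of 52.3. This ratio was 31.9 without chimpanzee replicate 1 and 345 without rhesus macaque replicate 3. CD33 did not pass the expression filter and has no fitted difference. A level from 1 exon reflects the reads assigned to that exon.

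SIGLEC1, or sialoadhesin, is a macrophage receptor with a long extracellular region and without the inhibitory motif, and its gene lies outside the chromosome 19 cluster. It (ENSG00000088827) has 14 listed exons on chromosome 20 from 3615619 to 3635353. No chimpanzee library had a count. The rhesus macaque libraries held 26 counts in all, with 11 in each of replicates 4 and 6 and 1 in each of the others, from 0.264 to 3.56 CPM. Pooled over libraries, rhesus macaque stood at 1.51 CPM, which is 8.43 times the 0.180 CPM that 3 chimpanzee counts would give. This ratio is not a lower bound, since it leaves out counting error and the spread between lines in rhesus macaque. SIGLEC11 (ENSG00000161640), an inhibitory receptor known from tissue macrophages and microglia, has 1 listed exon on chromosome 19 from 55153352 to 55153639. It had 1 count, in rhesus macaque replicate 4, and no level can be given for either species.

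Per length of listed exon, the order of the genes differed between the species. In rhesus macaque SIGLEC6 led at 238 ± 70.8 CPM per kb, followed by SIGLEC10 at 67.5 ± 56.5 and SIGLEC5 at 45.9 ± 22.8 CPM per kb (SD, n = 6). The last of these lay within their spread of each other. CD33 at 0.568, SIGLEC1 at 0.248 and SIGLEC11 at 0.187 CPM per kb were close to absent there. In chimpanzee CD33 had the highest mean at 29.7 ± 31.9 CPM per kb, followed by SIGLEC10 at 11.4 ± 5.48, SIGLEC5 at 9.98 ± 9.18 and SIGLEC6 at 1.77 ± 3.73 CPM per kb (SD, n = 6). The ranges of neighbours in this order overlapped, although SIGLEC5 exceeded SIGLEC6 per kb in all 6 chimpanzee libraries. SIGLEC10 and SIGLEC6 stood above 79.3% and 80.8% of the tested genes by mean CPM in rhesus macaque, and above 30.4% and 1.41% in chimpanzee.

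The exons of SIGLEC10 did not differ between the species to the same degree. In SIGLEC10, mean CPM was 7.50 times as high in rhesus macaque for the exon numbered 1, of 1350 bases, and 11.3 times for exon 2. For exons 3 and 4 the ratios were 2.39 and 2.55. The share of SIGLEC10 counts on exon 1 was 73.4% ± 4.72 in rhesus macaque, between 68.3% and 78.9% in every library, and 51.6% ± 20.3 in chimpanzee, between 29.4% and 85.5% (SD, n = 6 each). The share on exon 3 was 9.09% ± 1.95 in rhesus macaque and 23.3% ± 11.2 in chimpanzee. Chimpanzee shares rest on 34 to 182 counts per library. Without exon 1, which held most counts, the log2 difference of the gene was -2.01. Whether reads of both species were assigned alike to these exons was not tested.

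In SIGLEC6 all 5 exons were read in every rhesus macaque library, and exon 3 took 55.7% ± 3.19 of the counts. In chimpanzee 9 of the 17 counts fell on exon 3 and none on exon 5, which had 137 counts in rhesus macaque. The 2 exons of SIGLEC5 differed alike, by 4.39 and 5.11 times, and the share on exon 1 was 72.4% ± 16.9 for chimpanzee against 66.8% ± 4.94 for rhesus macaque (SD, n = 6 each). No listed exon of another gene overlapped an exon of the Siglec genes.

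**Figure D2:**
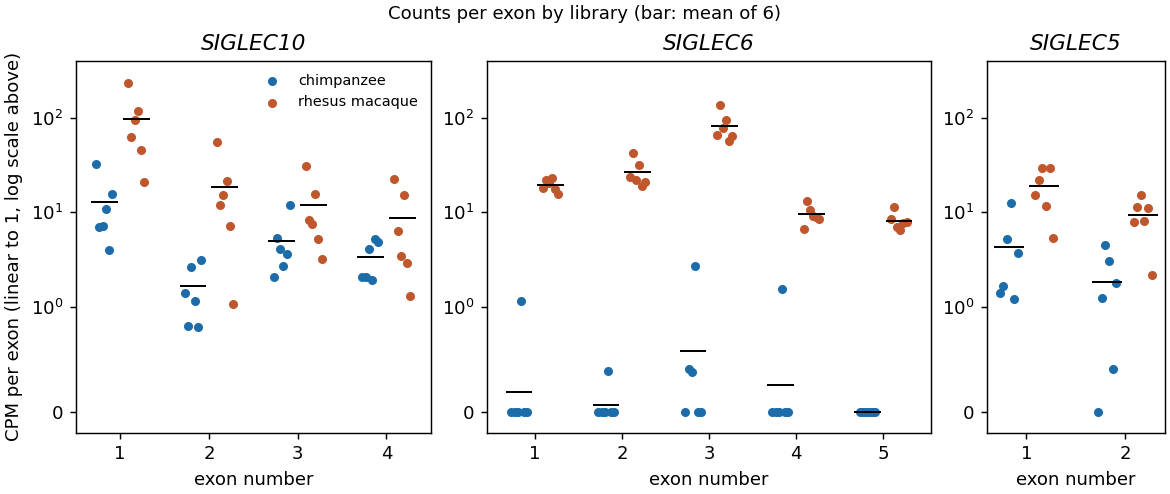
CPM of each listed exon of SIGLEC10, SIGLEC6 and SIGLEC5, 1 point per library and a bar at the mean of 6; the vertical axis is linear up to 1 CPM and logarithmic above. The gap between the species was wider for exons 1 and 2 of SIGLEC10 (7.50 and 11.3 times) than for exons 3 and 4 (2.39 and 2.55 times), and it held on all 5 exons of SIGLEC6.

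Along chromosome 19 in the coordinates of the files, 14 genes were listed from CD33 to SIGLEC5, 4 of them Siglec genes of the list. Of the other 10, 3 passed the expression filter and each had a log2 difference below 0, as had 48.4% of all genes tested. The filter can be passed on the counts of 1 species alone, so nothing is read from the direction of these 3. NKG7, a granule protein of NK and cytotoxic T cells, lies 38.4 kb before SIGLEC10. Chimpanzee lines held 53.5 ± 42.1 CPM of it against 872 ± 582 CPM for rhesus macaque (SD, n = 6 each), with no overlap. A gene with 1 listed exon from 56523737 to 56525914 stood at 1.62 ± 0.888 and 36.9 ± 24.2 CPM, also with no overlap. A gene from 56540222 to 56545457 differed less, at 75.4 ± 19.5 and 149 ± 75.0 CPM. In the other direction, a gene from 56528857 to 56534208 that did not pass the filter had 10.1 ± 6.77 CPM in chimpanzee against 1.73 ± 1.42 CPM in the macaque. A gene with 4 listed exons between SIGLEC10 and SIGLEC6, from 56674097 to 56678423, had 0 counts in chimpanzee, while rhesus macaque libraries held 0 to 17.7 CPM and 2 of these 6 had none. Differences within the interval thus lay on both sides of 0, with CD33 and 1 gene between it and SIGLEC10 higher in chimpanzee among those described.

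Beyond SIGLEC5, the next listed gene begins 15.8 kb further along, from 56838602 to 56840595, with 3 exons. Chimpanzee lines held 12.5 ± 7.49 CPM of it and macaque lines 53.6 ± 25.9 CPM (SD, n = 6 each), a log2 difference of -2.10 with a standard error of 0.43, beside the -2.16 of SIGLEC5. Whether this gene is a near-identical copy that shares reads with SIGLEC5 was not tested, and its values beside those of SIGLEC5 carry that limit. In the RefSeq annotation of the chimpanzee assembly NHGRI_mPanTro3-v2.0, SIGLEC13 follows SIGLEC10 and SIGLEC8 precedes SIGLEC6, and a gene without a Siglec name follows SIGLEC5. The files do not pair identifiers with names, so the neighbours are described by position.

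**Figure D3:**
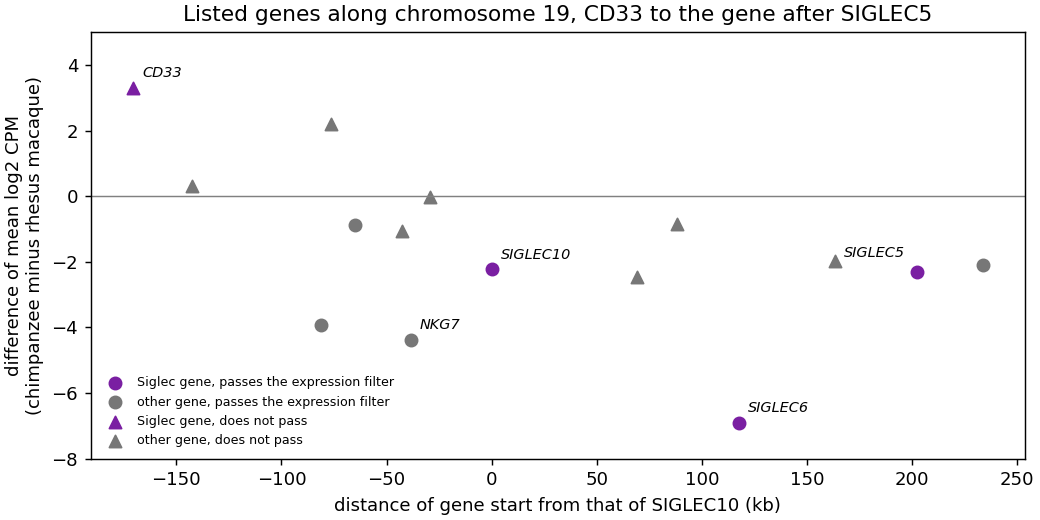
Difference of mean log2 CPM (chimpanzee minus rhesus macaque, prior count 2) for the 14 listed genes from CD33 to SIGLEC5 and the gene after it, against the distance of each gene's start from that of SIGLEC10 in kb; circles passed the expression filter and triangles did not. CD33 lies above 0 and SIGLEC10, SIGLEC6 and SIGLEC5 below it.

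Variation between lines of 1 species was not part of how the genes were chosen. Over 10 pairs of genes compared across the 6 lines of a species on the log2 scale, none passed after adjustment. The closest relation was that of SIGLEC5 with the gene 15.8 kb after it in rhesus macaque, with Pearson's r = 0.921 (exact permutation p = 0.0111, adjusted over 10 relations p = 0.111, n = 6) and Spearman's rho = 0.771 (exact permutation p = 0.103, adjusted p = 0.514). Without the 2 lines farthest from the SIGLEC5 median, r was 0.969. Reads shared by the pair, if any, would enter both values. In chimpanzee the same pair gave r = 0.629 (exact permutation p = 0.193, adjusted p = 0.552, n = 6) and rho = 0.429 (exact permutation p = 0.419, adjusted p = 0.839), and r = 0.606 without the 2 farthest lines. SIGLEC10 and NKG7 in rhesus macaque gave r = 0.763 (exact permutation p = 0.0722, adjusted p = 0.361, n = 6) and rho = 0.657 (exact permutation p = 0.175, adjusted p = 0.583), and r = 0.871 without the 2 farthest lines. For chimpanzee this pair gave r = 0.184 (exact permutation p = 0.789, adjusted p = 0.789, n = 6) and rho = 0.0857 (exact permutation p = 0.919), and r = 0.844 without the 2 farthest lines. SIGLEC10 and SIGLEC5 gave r = -0.199 in chimpanzee (exact permutation p = 0.667, adjusted p = 0.789, n = 6) and 0.406 in rhesus macaque (exact permutation p = 0.426, adjusted p = 0.789, n = 6). Their rho was -0.086 and 0.0857 (exact permutation p = 0.919 for both, adjusted p = 1). Without the 2 lines farthest from the SIGLEC10 median these r values were 0.861 and -0.668, so the sign rested on those lines.

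The labels give the sex of each animal, which played no part in the choice of genes, so female lines were set against male lines separately for chimpanzee and rhesus macaque. In chimpanzee SIGLEC5 was higher in the 3 female lines, at 9.76, 15.8 and 5.495 CPM, than in the 3 male lines, at 1.40, 2.87 and 1.61 CPM. The sexes did not overlap, and 12.2% of all tested genes were separated by sex in chimpanzee, 6.54% with the females above. Female minus male, the log2 difference was 2.32 (standard error 0.71), and it did not pass in the edgeR fit across all genes (unadjusted p = 0.00642, adjusted p = 0.511). An exact permutation test gave p = 0.1 (two-sided, 3 against 3), the smallest it allows. The gene after SIGLEC5 overlapped between the sexes, with 23.3, 20.03 and 6.87 CPM in females and 10.5, 4.51 and 9.69 CPM in males.

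In rhesus macaque SIGLEC5 stood at 30.3 ± 15.0 CPM in 2 females and 27.3 ± 15.8 CPM in 4 males (SD), a log2 difference of 0.16 (standard error 0.62, edgeR adjusted p = 1). The sex effect of SIGLEC5 was larger in chimpanzee by 2.16 (standard error 0.96), which did not pass (edgeR adjusted p = 0.932). For SIGLEC10 the sex difference was 0.10 with a standard error of 0.77 in chimpanzee and -0.31 with a standard error of 0.79 in rhesus macaque, and for SIGLEC6 it was 3.20 with a standard error of 1.64 and -0.14 with a standard error of 0.74. None of these passed (edgeR adjusted p from 0.747 to 1), and the chimpanzee value of SIGLEC6 was -0.17 without replicate 4. With edgeR 0 of 9440 genes passed in either species (0% in both), while 663 (7.02%) in chimpanzee and 208 (2.2%) in rhesus macaque had an unadjusted p under 0.05 and DESeq2 called 50 and 3. For the difference of the sex effects edgeR called 0 genes, 5.18% had an unadjusted p under 0.05 and DESeq2 called 6.

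**Figure D4:**
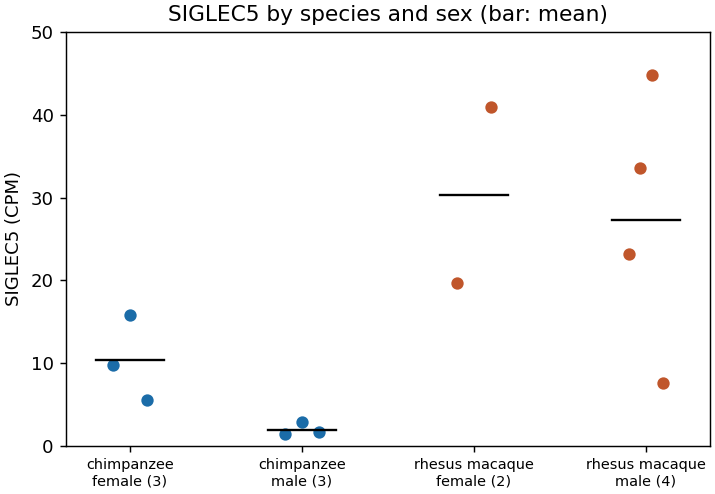
SIGLEC5 in CPM by species and sex, 1 point per library and a bar at the mean, for 3 female and 3 male chimpanzee lines and 2 female and 4 male rhesus macaque lines. The chimpanzee females lay between 5.495 and 15.8 CPM, above the males at 1.40 to 2.87 CPM, and the rhesus macaque sexes overlapped.

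Other genes of the pathway were taken from lists drawn up by known function, with earlier results of these data known, and were tested between the species over all genes, of which 48.3% passed (24.7% higher and 23.6% lower in chimpanzee). CD22, the founding B cell Siglec, was higher in chimpanzee. Chimpanzee libraries held 85.9 to 219.6 CPM of it and macaque libraries 0.610 to 34.3 CPM, with no overlap. Its log2 difference was 3.36 (standard error 0.57, edgeR adjusted p = 0.000269). It was 1 of 3 other Siglecs found, and the others, MAG (myelin-associated glycoprotein) and SIGLEC15 (a receptor of osteoclasts), had 5 counts and 1 count in all.

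Of 12 genes that carry or oppose B cell receptor signals, 11 were tested; chimpanzee was higher for 2 and lower for 4, and their median log2 difference was -0.04 against 0.04 over all genes. PTPN6, which encodes SHP-1, the phosphatase recruited by inhibitory Siglecs, was lower in chimpanzee at 846 ± 276 against 1606 ± 494 CPM (log2 difference -0.92, edgeR adjusted p = 0.0114). INPP5D, the inositol phosphatase SHIP-1, was also lower (-0.61, edgeR adjusted p = 0.0205), as was the guanine nucleotide exchange factor VAV1 (-1.19, edgeR adjusted p = 0.000593). TYROBP, the adaptor DAP12 that signals for activating Siglecs, was lower at 2.05 ± 1.98 against 29.5 ± 24.1 CPM (SD, n = 6 each; log2 difference -3.80, edgeR adjusted p = 0.00108). PLCG2, the phospholipase of B cell receptor signalling, and CBL, a ubiquitin ligase, were higher (1.46 and 0.68, edgeR adjusted p = 7.29e-05 and 0.00419). SYK, BTK, BLNK, CSK and SOCS3 did not pass. PTPN11, which encodes SHP-2, was the gene of this list not tested, with 6 counts in chimpanzee and 64 in rhesus macaque. Whether its listed exons capture the level of the gene was not tested.

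Of 16 genes that make, transfer or remove sialic acids, 15 were found and 14 tested; chimpanzee was higher for 5 and lower for 1, and their median log2 difference was 0.24. ST6GAL1, which makes the alpha-2,6-linked sialic acid bound by CD22, was higher at 145 ± 65.9 against 59.8 ± 42.5 CPM (SD, n = 6 each; log2 difference 1.26, edgeR adjusted p = 0.0191). The sialyltransferase ST3GAL2 was higher as well (1.87, edgeR adjusted p = 0.0005), as were the sialidases NEU3 and NEU1 (1.71 and 0.74, edgeR adjusted p = 0.00258 and 0.0307) and the sialate esterase SIAE (1.40, edgeR adjusted p = 0.023). The sialyltransferase ST3GAL4 was lower in chimpanzee, at 19.4 ± 8.54 against 79.5 ± 38.7 CPM (SD, n = 6 each; log2 difference -2.03, edgeR adjusted p = 0.000412). GNE, NANS and CMAS, enzymes of sialic acid synthesis and activation, did not pass.

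Markers of cell types were read beside these genes, since Siglecs mark lineages, and in bulk RNA more cells of a type and more RNA per cell cannot be told apart. Of 10 B cell markers 9 were found, and their levels summed to 1501 to 4952 CPM per chimpanzee library and 1013 to 2077 CPM per rhesus macaque library. CD79B, EBF1 and POU2AF1 were read in all libraries and did not pass the test, while MS4A1, PAX5, CD40 and CR2 were higher in chimpanzee. CR2 and FCER2, the receptors CD21 and CD23, were nearly absent from rhesus macaque, with 7 and 3 counts in all. The 5 NK cell markers summed to 11.3 to 152 CPM per chimpanzee library and 976 to 5725 CPM per macaque library. GZMB and PRF1, granule proteins of cytotoxic cells, were higher in rhesus macaque (log2 differences of -6.07 and -6.05, edgeR adjusted p = 5.36e-05 and 0.000112). NKG7, which lies in the chromosome 19 interval from CD33 to SIGLEC5, had a log2 difference of -4.02, given as a description. KLRD1, another NK cell receptor, had 2 counts in each species.

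The 5 T cell markers summed to 2.46 to 32.1 CPM per chimpanzee library and 1.83 to 190 CPM per macaque library. CD3D, CD3E and CD3G were at 0 in chimpanzee, and CD3D reached 99.2 and 171 CPM in rhesus macaque replicates 2 and 6. The other markers of the list had more counts in chimpanzee. CD2, an adhesion receptor of T and NK cells, had 12.2 ± 11.3 against 3.38 ± 6.46 CPM (SD, n = 6 each) and did not pass (log2 difference 1.78, edgeR adjusted p = 0.156), and CD5 had 4 counts against 0. Without the 2 libraries rich in CD3D the log2 differences were -2.95 for SIGLEC10, -6.92 for SIGLEC6 and -2.37 for SIGLEC5. Of 10 myeloid markers 7 were found, and they summed to 4.04 to 26.6 CPM per chimpanzee library and 1.85 to 26.2 CPM per macaque library and went both ways. ITGAM, an integrin of myeloid and NK cells and the 1 marker of this list that could be tested, was higher in chimpanzee at 8.19 ± 5.30 against 2.80 ± 1.75 CPM (SD, n = 6 each; log2 difference 1.497, edgeR adjusted p = 0.0323). LYZ had 43 counts in chimpanzee and 0 in the macaque, while S100A8, a calcium-binding protein of neutrophils and monocytes, had 0 and 62 counts and CD14 had 0 and 3. The part of NK, T or myeloid cells in the Siglec levels was not tested.

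**Figure D5:**
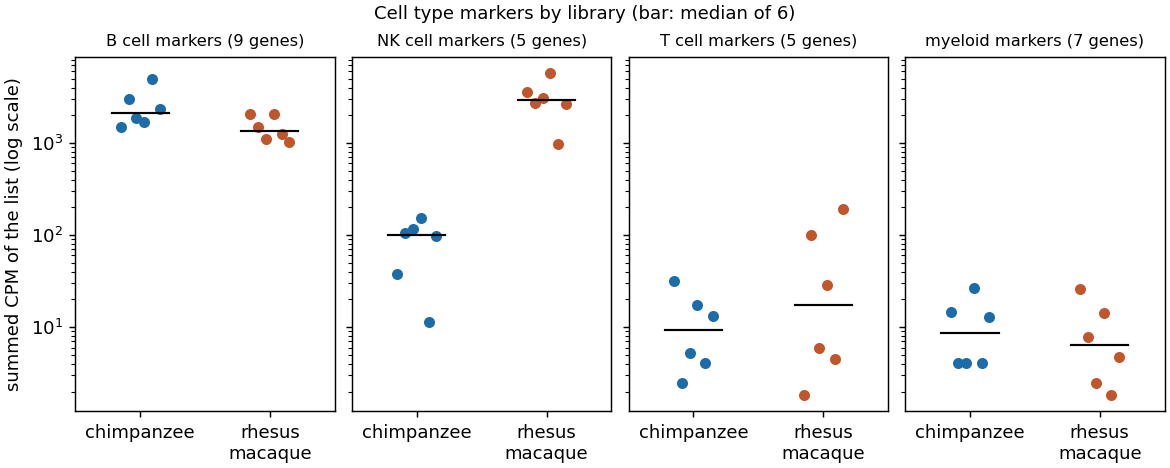
Summed CPM of the B cell, NK cell, T cell and myeloid markers found in the files, 1 point per library and a bar at the median of 6, on a log scale. The sum of NK cell markers was 976 to 5725 CPM for the macaque lines and 11.3 to 152 CPM for the chimpanzee lines, while myeloid markers stayed at 26.6 CPM or less in both species.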

How the data were processed

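The authors deposited raw counts per exon, 1 file per library, as whole numbers (per the file headers and values, exons without a count are not listed and were taken as 0). The aligner, counting tool and genome build were not given in the sources used here, and positions are those of the files. Per the labels' protocols, no step that marks strand is named. Counts were summed per gene. The fit was the edgeR 4.0.16 quasi-likelihood test (R 4.3.3, limma 3.58.1) with TMM scaling, the default expression filter (minimum count 10, minimum total 15) and Benjamini-Hochberg adjustment over 9440 genes at 0.05. The species fit had species as its only term, and the sex fit had 4 groups. Log2 CPM used a prior count of 2. Alternatives used DESeq2 1.42.0, no filter, other exon sets, thinned counts, males only and each library left out. Leaving out both rhesus macaque libraries rich in CD3D was chosen after seeing the data. The fits were run on simulated counts that had the same spread setting for all genes. That run does not show how the fits perform for genes that vary more between lines.

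Of the file identifiers, 0 matched the gene name table and 0 the RefSeq table. The Siglec identifiers came paired with symbols, and the other list genes were paired with Ensembl identifiers from general knowledge: 62 of 73 list identifiers were found, and 62 lay on the chromosome of the named gene. The genes and lists were chosen with earlier results of these data known. Named were all Siglec genes of the list, the genes of the lists, neighbours by position and the 3 genes most like each Siglec that passed the filter. Within a species, any 2 libraries differed by more than counting noise (lowest chi-square per degree of freedom 15.6). The labels used here name no batch. The values of 1 B cell marker are not reported here.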

Additional observations from a re-analysis of the deposited data

Results flagged for a closer look

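Among 10 groups of 6 libraries examined, 3 held a library whose gap to the next, as a share of the group's range, exceeded Dixon's critical value. For normally distributed values chance gives about 1 in 20 groups. SIGLEC6 stood at 5.78 CPM in chimpanzee replicate 4, with the other 5 chimpanzee libraries at 0.410 CPM or less. CD33 stood at 1.496 CPM in rhesus macaque replicate 3, from 3 counts, and the others were at 0.216 CPM or less. SIGLEC11 stood at 0.323 CPM in rhesus macaque replicate 4, from 1 count, and the others were at 0. A single count among 6 libraries always fills the whole range, so SIGLEC11 says nothing beside that chance rate. All 3 lie in groups with few counts, for which the rate of 1 in 20 need not hold, so 3 of 10 is not read as an excess.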

How the results depend on the processing

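The log2 species differences of SIGLEC10, SIGLEC6 and SIGLEC5 stayed below 0 under every alternative run. With each library left out in turn they ran from -2.81 to -2.05, from -9.61 to -6.65 and from -2.68 to -1.97. With males alone SIGLEC6 stood at -9.49, and from mean log2 CPM with a prior count of 0.5 at -8.24. The number of listed Siglec genes lower in chimpanzee, 5 of 6, was 4 to 5 with each library left out. It was 4 of 5 without rhesus macaque replicate 4, which held the 1 count of SIGLEC11. When exons had to be read in 3 or more libraries per species it was 3 of 3, since that leaves 3 of the genes. The number of all genes differing between the species, 4558, was 4222 to 4801 with each library left out. The sex comparisons, with 0 genes called by edgeR, gave with DESeq2 50 genes in chimpanzee, 3 in the macaque and 6 for the difference of the sex effects. With each library left out they gave 0 to 4, 0 to 0 and 0 to 1, with 4 without chimpanzee replicate 1, and 3 and 1 without chimpanzee replicate 2; the cause was not tested. Log2 sex differences that did not pass changed sign with single libraries left out: in chimpanzee SIGLEC10 ran from -0.34 to 0.70 and SIGLEC6 from -0.17 to 5.39. In rhesus macaque SIGLEC10 ran from -1.21 to 0.57, SIGLEC6 from -0.43 to 0.13 and SIGLEC5 from -0.46 to 0.62. The difference between the species ran from -0.46 to 1.33 for SIGLEC10 and from -0.04 to 5.52 for SIGLEC6. SIGLEC5 in chimpanzee kept its direction, from 1.89 to 2.71, and did not pass in any of them (lowest edgeR adjusted p = 0.285; DESeq2 adjusted p = 0.151). Where an arm was left with 1 library, it was assumed to vary like the other groups. No paired analysis was possible because each library comes from a different animal and the labels pair none of them. The labels give no replicate numbers, and the numbers used here only name the libraries. Depth limits CD33, SIGLEC1 and SIGLEC11, which rest on 4, 26 and 1 counts in rhesus macaque.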

Other observations

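The genes whose levels followed those of a Siglec gene most closely across lines lay on other chromosomes. After subtracting each species' mean, over 12 libraries and 9437 genes, the gene most like SIGLEC10 lies on chromosome 22 from 37504468 to 37508821 (r = 0.955), with means of 12.8 CPM for chimpanzee and 79.0 CPM for the macaque. The next lie on chromosome 17 from 33120548 to 33179209 (r = 0.933) and on chromosome 4 from 110829234 to 110838947 (r = 0.870). For SIGLEC6 they lie on chromosome 5 from 131437384 to 131439758 (r = 0.925), chromosome 11 from 122214416 to 122244017 (r = 0.894) and chromosome 2 from 85779198 to 85779385 (r = 0.880). SIGLEC6 had 17 counts in chimpanzee, 15 of them in 1 library, so its likeness there follows that library.

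For SIGLEC5 they lie on chromosome 22 from 49308865 to 49309719 (r = 0.932), chromosome 11 from 122031640 to 122184094 (r = 0.932) and chromosome 1 from 148504423 to 148508156 (r = 0.896). The gene directly after SIGLEC5 came 61st for SIGLEC5, with r = 0.744, and NKG7 came 1407th for SIGLEC10, with r = 0.381. These are the highest of many values over the same 12 libraries and are given as a description.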
